A study of Mus musculus with 2 samples.

Results

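The genes described here encode the respiratory chain and ATP synthase of mitochondria, and were followed in M1-like bone marrow-derived macrophages (BMDMs) from WT and FRβ KO mice. They were chosen by symbol as the protein-coding genes of the GENCODE M21 annotation that start with Nduf, Uqcr, Atp5, Cox4, Cox5, Cox6, Cox7, Cox8 or mt-, together with *Sdha*, *Sdhb*, *Sdhc*, *Sdhd* and *Cyc1*. This gave 108 genes of the 54532 in the deposited count table, of which 95 lie in the nuclear genome and 13 in the mitochondrial genome. The rule uses symbols and no measured value, but it was set with earlier results of these data known.

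FRβ is folate receptor β, the product of *Folr2*. Bone marrow of male C57BL/6 mice, WT or FRβ KO, was cultured for 7 days with M-CSF at 20 ng/mL in regular RPMI 1640, and the resulting M0 macrophages were polarized for 24 h with IFNγ at 20 ng/mL and LPS at 1 ng/mL. The FRβ KO allele is an insertion in *Folr2*, while WT mice carry no insertion. The paper states that this allele was backcrossed onto C57BL/6J, from SWV *Folr2* heterozygous males crossed with C57BL/6 females. It names the WT mice as C57BL/6, without a substrain. RNA of 3 mice was pooled in each genotype before sequencing, so each genotype is 1 library. According to the paper, WT mice came from Charles River, while FRβ KO mice were bred at Purdue University. The values therefore compare 2 libraries, and a difference of genotype cannot be told apart from a difference between the pools or the sources of the mice.

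The WT library held 18871271 counts and the FRβ KO library 19742619, over 18945 and 19090 detected genes. After scaling by TMM, which sets libraries to a common size from the bulk of their genes, the FRβ KO library counted as 1.07 times as large as the WT library. All 7 macrophage markers and all 5 M1-like markers were detected, at summed levels of 19470 and 7543 CPM (counts relative to the library size) for WT and 16934 and 6929 CPM for FRβ KO. T, B, NK, erythroid and mast cell markers summed to less than 1 CPM per type in each library, and dendritic, fibroblast and endothelial markers to between 3.004 and 11.8 CPM. The 5 neutrophil markers summed to 35.8 CPM for WT and 20.98 CPM for FRβ KO, and the part of such cells in the results was not tested. *Folr2*, the targeted gene, had 0 WT and 2 FRβ KO counts, so it cannot serve as a check of the labels.

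The respiratory chain moves electrons from NADH and succinate to oxygen through complexes I to IV in the inner mitochondrial membrane, and the proton gradient that this builds drives ATP synthase, also called complex V. Complexes I, III, IV and V combine subunits from both genomes: the mitochondrial genome encodes core membrane subunits, and the nuclear genome encodes the rest, including many small supernumerary subunits that surround the catalytic core. Complex II is wholly nuclear. In macrophages, stimulation with LPS and IFNγ is known for a turn from oxidative phosphorylation toward glycolysis, in which nitric oxide inhibits the chain.

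Beyond counting error, more nuclear members were lower than higher in the FRβ KO library, and more mitochondrial members were higher than lower. Most of the higher mitochondrial members have a near-identical copy elsewhere in the genome. The mitochondrial sum turned lower without the genes that have a near-identical copy elsewhere, but stayed higher when the copies were added to their genes. A ratio below is the FRβ KO over the WT value of TMM-scaled counts, with an exact 95% interval from the pair of counts that covers counting error only. Of the 108 members, 100 had at least 10 counts over both libraries. The other 8 were 7 nuclear genes, 4 of them at 0 in both libraries, and *mt-Atp8*. Of the 100, the interval lay below 1 for 42 and above 1 for 12, and it held 1 for the other 46. Among all 14489 genes with at least 10 counts, 16.6% had an interval below 1 and 15% an interval above 1. The point ratio was over 1.2-fold lower for 25 members and over 1.2-fold higher for 8, beside 18.3% and 17.6% of all genes. For *mt-Nd3* the whole interval lay more than 2-fold above 1, as it did for 0.311% of all genes, and no member had its whole interval more than 2-fold below 1 (0.407% of all genes).

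By genome of origin the members divided. Of the 95 nuclear members, 88 had at least 10 counts, and 41 of these had an interval below 1 and 4 above 1. Their median log2 ratio was -0.13, beside -0.00 over all genes, and their summed counts of 92151 (WT) and 91702 (FRβ KO) gave a ratio of 0.929 (interval 0.921 to 0.938). Well-counted genes have narrow intervals, so the comparison was repeated at 200 or more counts. There 39 of 83 nuclear members (47.0%) lay below 1 and 4 above, against 20.3% and 18.4% of the 9465 genes at that depth. Of the 13 mitochondrial members, 12 had at least 10 counts. Of these, 8 (66.7%) had an interval above 1 and 1 (8.33%) below, beside 15% and 16.6% of all genes. At 200 or more counts, 6 of 10 lay above and 1 below, against 18.4% and 20.3%. Those above 1 include *mt-Nd3*, *mt-Nd4l*, *mt-Co2* and *mt-Co3*, which have whole-length copies on chromosome 1. With the copy added, *mt-Nd3* was at 0.702 (0.532 to 0.925) and the interval of *mt-Co3* held 1. The mitochondrial sum was 286935 WT and 311808 FRβ KO counts, a ratio of 1.01 (1.01 to 1.02). Without the 9 mitochondrial members that have a near-identical copy elsewhere in the genome, the direction turned, with a ratio of 0.961 (0.949 to 0.973). Nearly all counts left were those of *mt-Cytb* (0.889), *mt-Nd1* (0.994) and *mt-Nd6* (1.07), and only *mt-Cytb* had an interval below 1. Adding the copies to their genes, instead of leaving these genes out, gave 1.01 (1.01 to 1.02).

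The ratio of mitochondrial to nuclear member counts within a library does not depend on the scaling. It was 3.11 in WT and 3.40 in FRβ KO, so that the quotient was 1.09 (exact conditional interval 1.08 to 1.10). Leaving out *mt-Co1*, which holds most mitochondrial counts, gave 1.11 in WT, 1.21 in FRβ KO and a quotient of 1.10 (1.08 to 1.11), and leaving out all members with a copy gave 1.03 (1.02 to 1.05). Complex by complex the quotient was 1.15 (1.13 to 1.18) in I, 1.16 (1.14 to 1.19) in IV and 1.26 (1.05 to 1.502) in V, where the mitochondrial side is only 229 and 288 counts. In complex III it was 0.926 (0.894 to 0.959), the opposite direction. In RNA from whole cultures, a smaller share of some cells and less RNA per cell cannot be told apart.

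**Figure D1:**
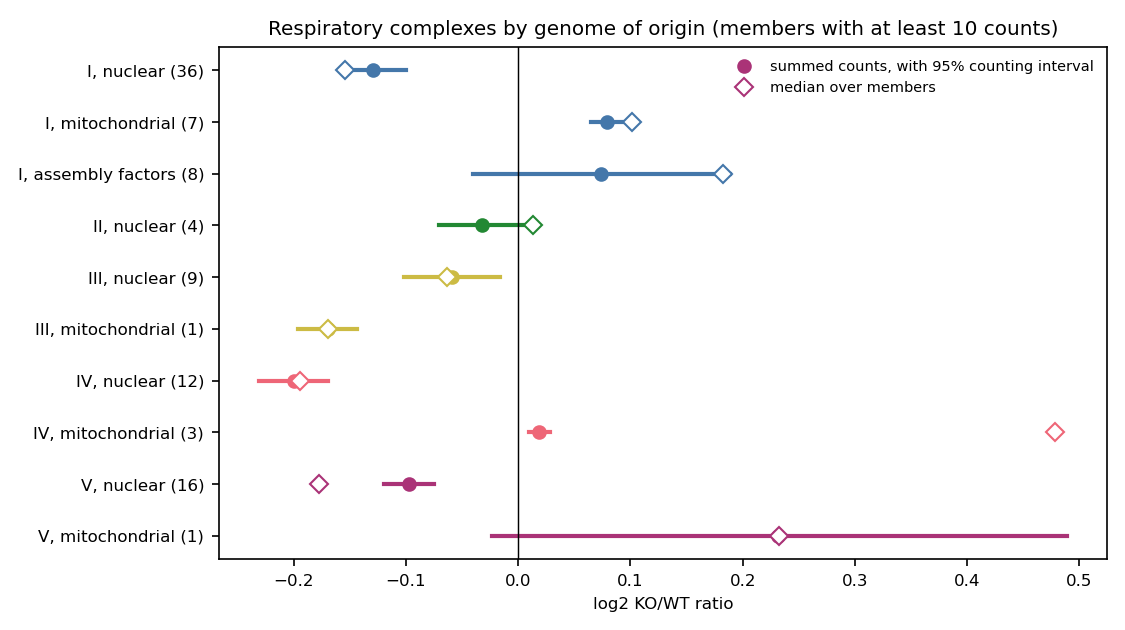
Log2 of the FRβ KO over WT ratio for each complex and genome of origin, with the number of members with at least 10 counts in parentheses. Filled circles are ratios of summed counts with 95% counting intervals and open diamonds are medians over members. Nuclear complexes I, III, IV and V lie left of 0, the mitochondrial sums of I, IV and V lie at or right of 0, and the 1 mitochondrial member of complex III lies left of 0.

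The mitochondrial genome encodes 7 subunits of complex I, 1 of complex III, 3 of complex IV and 2 of complex V. Counts of these genes ran from 2 to 200546 per library, and the low ones were mostly genes with a near-identical copy in the nuclear genome. The annotation holds such copies on chromosome 1, within 24611535 to 24616197 (GRCm38), of *mt-Co1*, *mt-Co2*, *mt-Atp6*, *mt-Co3*, *mt-Nd3*, *mt-Nd4l* and *mt-Nd4*. For *mt-Co2*, *mt-Atp6*, *mt-Co3*, *mt-Nd3* and *mt-Nd4l* the copy spans nearly the whole gene at 99.7% or 100% identity, and these genes had 3 to 693 counts. For *mt-Co1* and *mt-Nd4* this copy spans only 483 and 876 bases, and these genes had at least 15714 counts. Less similar copies lie on chromosome 2 for *mt-Co1*, *mt-Co2* and *mt-Nd2* and on chromosome 13 for *mt-Nd5*. The one of *mt-Co1*, *Gm13340*, spans 1545 bases, the whole gene, at 97.6% identity and had 32 WT and 40 FRβ KO counts. The sources used here do not say how reads that match both places were counted, so levels of the 5 genes with whole-length copies on chromosome 1 cannot be compared with the rest.

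Among the 7 mitochondrial genes with at least 5625 counts in each library, the largest differences were in *mt-Nd5* and *mt-Cytb*, in opposite directions. *mt-Nd5*, a proton-pumping subunit of complex I, had 31926 WT and 37868 FRβ KO counts, a ratio of 1.11 (1.09 to 1.12). *mt-Nd6*, the only protein gene on the other strand, had 11576 and 13301 counts (1.07, 1.05 to 1.10). It overlaps *mt-Nd5* only from position 13552 to 13565. The strand setting of the counting is not given, so reads from both strands cannot be separated over the whole of *mt-Nd6*. *mt-Nd2* was also higher in FRβ KO, with 5625 and 6294 counts (1.04, 1.01 to 1.08).

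The other complex I genes of this group did not differ beyond counting error. *mt-Nd1* had 12541 WT and 13346 FRβ KO counts (0.994, 0.970 to 1.02), and *mt-Nd4* had 15714 and 16595 (0.986, 0.965 to 1.01). *mt-Cytb*, the cytochrome b of complex III, was the 1 mitochondrial gene with an interval below 1, at 23609 and 22476 counts (0.889, 0.873 to 0.905). *mt-Co1*, the catalytic subunit of complex IV that binds heme and copper, had 185072 WT and 200546 FRβ KO counts (1.01, 1.01 to 1.02). Per kilobase of exon it was the most abundant member in both libraries, at 6422 CPM per kb in WT and 6498 in FRβ KO. Next were *mt-Nd6* at 1196 and 1283, where the strand of the reads is not known, and *mt-Cytb* at 1106 and 984.

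**Figure D2:**
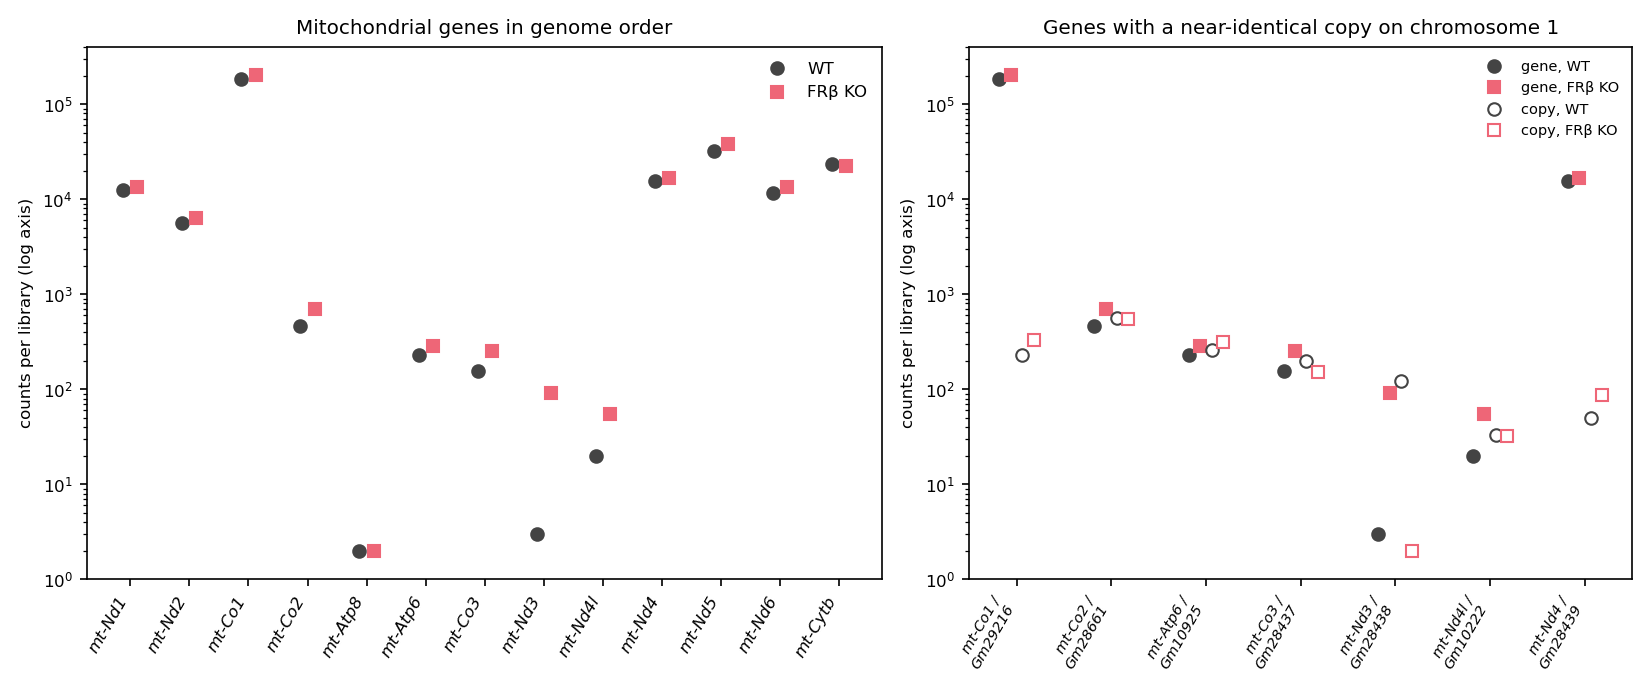
Counts per library on a log axis, circles for WT and squares for FRβ KO. The left panel gives the 13 mitochondrial genes in genome order and the right panel sets 7 of them (filled) beside their chromosome 1 copies (open). The genes from *mt-Co2* to *mt-Nd4l* lie far below their neighbours, and *mt-Nd3* and its copy change places between the libraries, with 3 and 122 counts for WT and 92 and 2 for FRβ KO.

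The member with the largest ratio was *mt-Nd3*, a core membrane subunit of complex I, with 3 WT and 92 FRβ KO counts (28.6, 9.497 to 141). Its copy *Gm28438* went the other way, with 122 WT and 2 FRβ KO counts (0.0153, 0.00183 to 0.0565). Both transcripts are alike at 344 of 345 compared bases, and the 1 difference is T3C, counted from the first base of the gene, with the *mt-Nd3* base first, at mitochondrial position 9461. The first 45 bases are shown because they hold that base, in capitals, as GENCODE M21 gives them on GRCm38 for chrM:9459-9503 (plus strand) and chr1:24613075-24613119 (minus strand).
mt-Nd3: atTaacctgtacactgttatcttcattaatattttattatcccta
Gm28438: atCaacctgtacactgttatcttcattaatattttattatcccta
The gene and its copy together had 125 WT and 94 FRβ KO counts, a ratio of 0.702 (0.532 to 0.925), so the direction for *mt-Nd3* turns when both are summed. The deposited table holds counts and no bases, and which base the reads carried in each library was not tested.

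Of the other genes with whole-length copies on chromosome 1, *mt-Co2*, *mt-Co3* and *mt-Nd4l* were also higher in FRβ KO on their own, and less so with the copy added, while the interval of *mt-Atp6* held 1 until the copy was added. *mt-Co2*, which takes up electrons from cytochrome c, had 464 WT and 693 FRβ KO counts (1.39, 1.24 to 1.57), and 1027 and 1241 together with *Gm28661* (1.13, 1.04 to 1.23). *mt-Co3* had 156 and 254 counts (1.52, 1.24 to 1.87), and with *Gm28437* the interval held 1, at 356 and 406 (1.06, 0.921 to 1.23). *mt-Nd4l* had 20 and 55 counts (2.57, 1.51 to 4.52), and with *Gm10222* it had 53 and 87 (1.53, 1.08 to 2.20). *mt-Atp6*, the channel subunit of ATP synthase, had 227 and 286 counts (1.18, 0.985 to 1.41), and with *Gm10925* 485 and 599 (1.15, 1.02 to 1.30). *mt-Atp8*, which lies between *mt-Co2* and *mt-Atp6* and overlaps the latter, had 2 counts in each library, too few for a comparison.

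Of the RNAs that the mitochondrial ribosome itself needs, both rRNAs were higher in the FRβ KO library. *mt-Rnr1* had 6259 WT and 7889 FRβ KO counts (1.18, 1.14 to 1.22), and *mt-Rnr2* had 11326 and 12998 (1.07, 1.04 to 1.10). In all, 12 of the 24 rRNA and tRNA genes had at least 10 counts. Of these, 2 had an interval above 1 (16.7%, near the 15% of all genes) and 0 below (beside 16.6%). The tRNA gene with the most counts, *mt-Tp*, named after its values were seen, had 894 and 1042 counts (1.09, 0.994 to 1.19).

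Nuclear complex I subunits, which form the entry point for NADH, were lower as a group. Of 36 subunits, 14 had an interval below 1 (38.9%, beside 16.6% of all genes) and 1 above (2.78%, beside 15%). Their median log2 ratio was -0.15 and their summed counts of 19620 and 19215 gave 0.914 (0.896 to 0.933). The 7 nuclear core subunits, which include those that carry the flavin and the iron-sulfur clusters, had 3 below 1 (42.9%) and 0 above and a median of -0.09. *Ndufv1*, which holds the NADH site, had 924 WT and 840 FRβ KO counts (0.849, 0.772 to 0.933). *Ndufs8*, an iron-sulfur subunit with 211 and 183 counts (0.810, 0.661 to 0.992), was the core subunit with the lowest ratio. *Ndufs1*, the largest subunit, had 741 and 795 counts (1.00, 0.905 to 1.11) and did not differ beyond counting error.

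The 29 supernumerary subunits of complex I had 11 below 1 (37.9%, beside 16.6% of all genes) and 1 above (3.45%, beside 15%), with a median of -0.16. *Ndufb4* was the subunit with the lowest ratio, at 212 WT and 156 FRβ KO counts (0.687, 0.555 to 0.849), and with its identical copy *Ndufb4c* the sum was 223 and 188 (0.787, 0.645 to 0.960). *Ndufa1*, a small subunit encoded on the X chromosome, had 307 and 228 counts (0.693, 0.582 to 0.826). *Ndufb3* had 281 and 211 (0.701, 0.584 to 0.841), and *Ndufa3* had 511 and 388 (0.709, 0.620 to 0.811). These 4 all code for short membrane-arm proteins.

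A further 4 supernumerary subunits were over 1.2-fold lower with an interval off 1. *Ndufb6* had 175 and 141 counts (0.752, 0.598 to 0.945), *Ndufa5* 378 and 309 (0.763, 0.655 to 0.889), *Ndufs5* 447 and 369 (0.771, 0.670 to 0.887) and *Ndufb10* 754 and 658 (0.815, 0.733 to 0.906). The supernumerary subunit above 1 was *Ndufa10*, with 1160 and 1393 counts (1.12, 1.04 to 1.21). Per kilobase of exon the most abundant nuclear complex I subunit was *Ndufa2*, at 54.7 CPM per kb in WT and 46.6 in FRβ KO. It had 584 and 533 counts (0.852, 0.756 to 0.960).

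The point ratio of *Ndufb2* was also beyond 1.2-fold, upward, but at 37 and 57 counts the interval held 1 (1.44, 0.935 to 2.24). In all, 24 nuclear members have a copy elsewhere in the genome of at least 95% identity, and reads that match both may have been split. *Ndufa12*, named here after its values were seen, had 140 and 126 counts (0.840, 0.655 to 1.08), and with its copy *Gm15920* it had 280 and 217, an interval below 1 (0.724, 0.603 to 0.867).

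The 8 Ndufaf genes encode factors that assemble complex I and do not stay in it, and they lay on both sides of 1. Their median log2 ratio was 0.18. An interval above 1 was found for 2 (25%, beside 15% of all genes) and below 1 for 3 (37.5%, beside 16.6%). The share below was near the 38.9% of the nuclear complex I subunits. *Ndufaf4* had 162 WT and 273 FRβ KO counts, and at 1.57 (1.29 to 1.92) it had the highest ratio of a nuclear member with at least 10 counts. *Ndufaf7*, a methyltransferase that modifies a core subunit, had 91 and 130 counts (1.33, 1.01 to 1.76). *Ndufaf2* had 119 and 83 (0.651, 0.486 to 0.869), the lowest ratio of a nuclear member with at least 50 counts. *Ndufaf6* had 101 and 77 (0.712, 0.522 to 0.967), and *Ndufaf8* had 259 and 212 (0.764, 0.634 to 0.920). No factor had more than 273 counts in a library, so the intervals are wide, and their summed ratio of 1.05 (0.972 to 1.14) held 1.

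**Figure D3:**
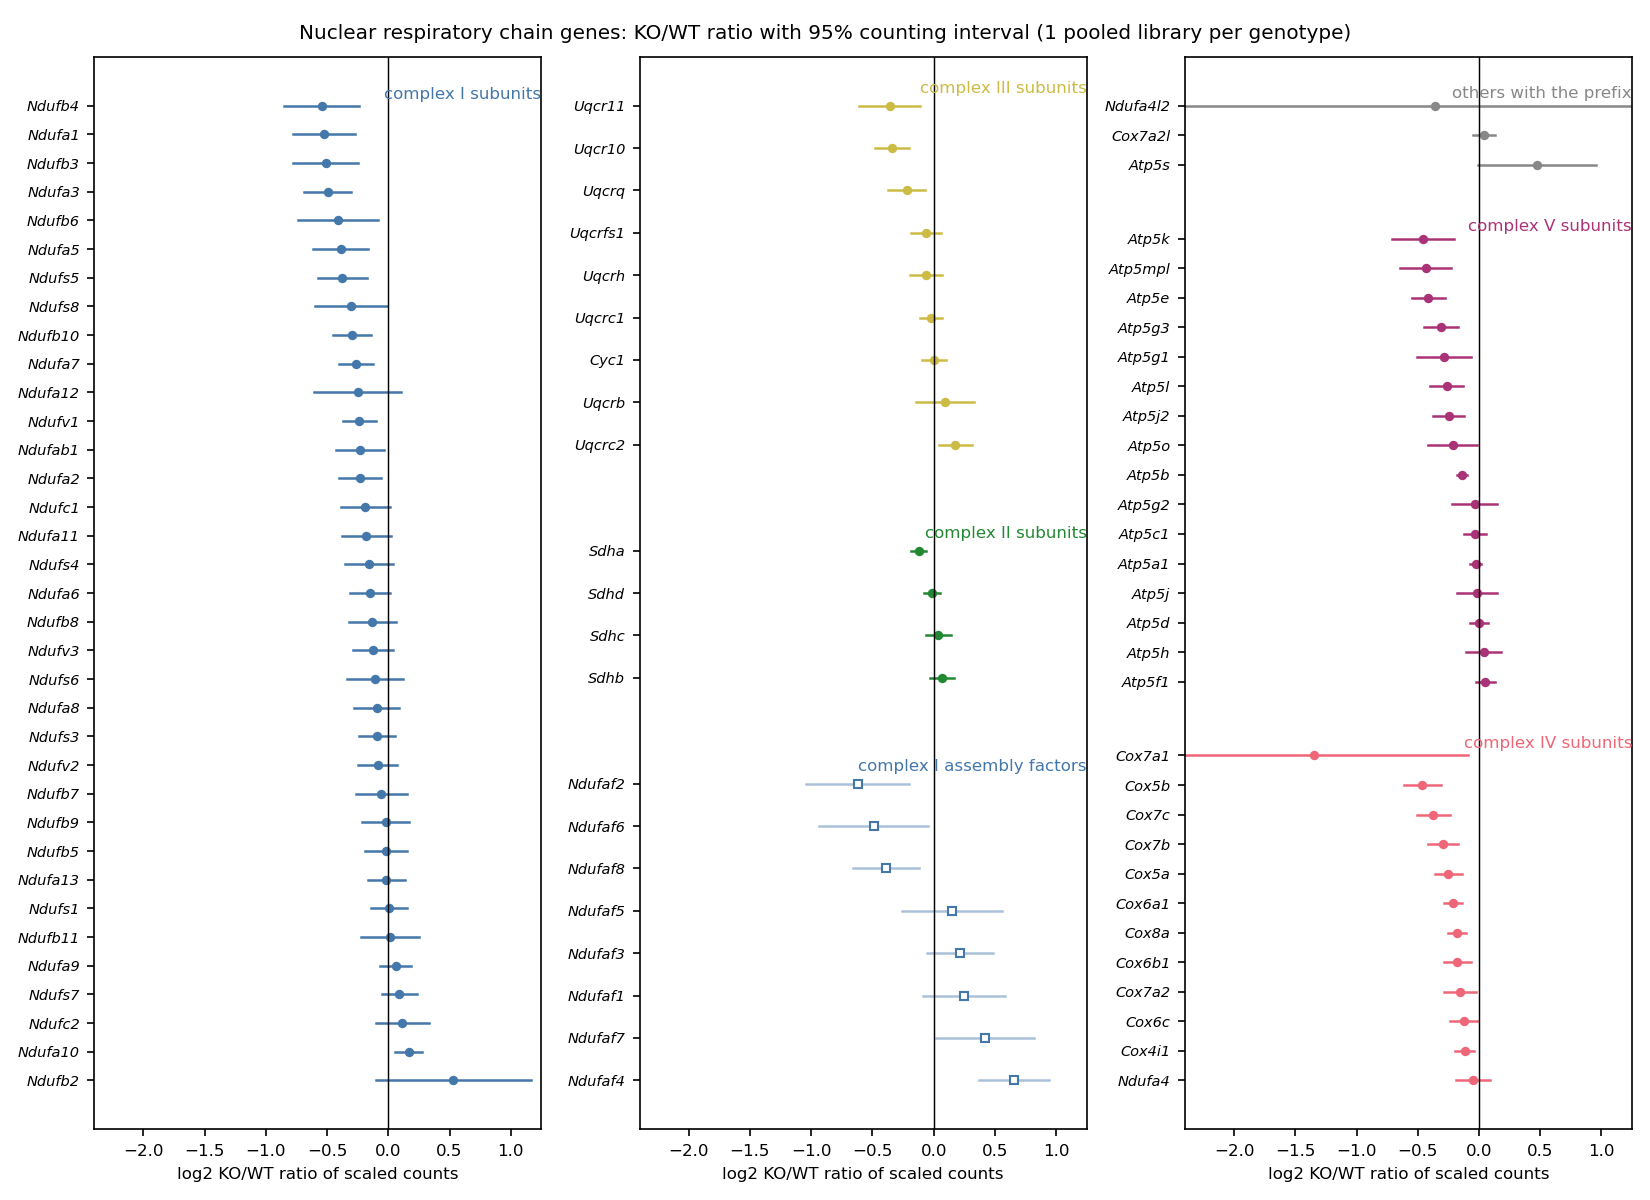
Log2 of the FRβ KO over WT ratio of scaled counts for the nuclear members with at least 10 counts (1 is not shown), with 95% counting intervals, ordered within each complex. Open squares are complex I assembly factors, and the intervals of *Cox7a1* and *Ndufa4l2* run past the edge of the axis. All 12 complex IV subunits lie left of 0, and the assembly factors lie on both sides.

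Complex II, succinate dehydrogenase, links the chain to the citric acid cycle, and its 4 subunits did not share a direction. *Sdha*, the flavoprotein that oxidizes succinate, had 4043 WT and 3979 FRβ KO counts (0.919, 0.879 to 0.960). *Sdhb*, with the iron-sulfur clusters, had 1584 and 1782 (1.05, 0.981 to 1.12), and the membrane anchors *Sdhc* and *Sdhd* had 1456 and 1600 (1.03, 0.955 to 1.10) and 3585 and 3812 (0.993, 0.948 to 1.04). The intervals of the last 3 held 1, and the summed ratio of 0.978 (0.952 to 1.00) did too. *Sdhd* was the most abundant per length, at 156 CPM per kb in WT and 155 in FRβ KO, ahead of *Sdha* at 52.5 and 48.3.

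Complex III passes electrons from coenzyme Q to cytochrome c. Its 9 nuclear subunits had 3 intervals below 1 (33.3%, beside 16.6% of all genes) and 1 above (11.1%, near the 15% of all genes). The summed ratio was 0.960 (0.932 to 0.989). Scaled by total counts it was 0.983, with an interval that held 1 (0.954 to 1.01). The catalytic subunits did not differ beyond counting error, with 1681 and 1806 counts for cytochrome c1, *Cyc1* (1.00, 0.938 to 1.07), and 1073 and 1099 for the Rieske iron-sulfur protein, *Uqcrfs1* (0.956, 0.878 to 1.04). *Uqcrc1*, a core protein of the matrix side, had 1967 and 2077 counts (0.986, 0.927 to 1.05), while *Uqcrc2*, its partner, had 803 and 972 (1.13, 1.03 to 1.24) and was the 1 subunit above 1.

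The complex III subunits that were lower are all small. *Uqcr10* had 913 WT and 772 FRβ KO counts (0.790, 0.716 to 0.870), *Uqcr11* had 298 and 249 (0.780, 0.657 to 0.926), and *Uqcrq* had 737 and 678 (0.859, 0.773 to 0.955). *Uqcr10* was also the most abundant nuclear subunit of complex III per length, at 83.8 and 66.2 CPM per kb, ahead of *Uqcrh* at 42.4 and 40.6. Cytochrome c itself, *Cycs*, which is not a member, went the other way with 926 and 1084 counts (1.09, 1.00 to 1.19).

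Complex IV, cytochrome c oxidase, was the complex with the most even direction. Of its 18 nuclear genes 12 had at least 10 counts, and the point ratio of each was below 1. Of these, 11 had an interval below 1 (91.7%, beside 16.6% of all genes) and 0 above (beside 15%). The summed counts of 17775 (WT) and 16570 (FRβ KO) gave 0.870 (0.852 to 0.889), the lowest summed ratio of the 5 nuclear complexes. Its counted subunits also had the shortest median coding length of the 5, at 253.5 bp. *Cox5b*, a zinc-binding subunit on the matrix side, was lowest among those with at least 50 counts, at 838 and 651 counts (0.725, 0.654 to 0.805). *Cox7c* had 1025 and 848 (0.773, 0.705 to 0.847), and *Cox7b* had 1160 and 1016 (0.818, 0.751 to 0.890). *Cox5a*, which pairs with *Cox5b* next to the catalytic core, had 1422 and 1281 (0.841, 0.779 to 0.908).

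Several complex IV subunits exist as a broadly expressed form and a form of heart, muscle, lung or testis, and only the broad forms were well counted. *Cox4i1* had 2551 WT and 2519 FRβ KO counts (0.922, 0.872 to 0.975), against 3 and 6 for the lung form *Cox4i2*. *Cox6a1* had 3261 and 3018 (0.864, 0.822 to 0.908), against 3 and 4 for the muscle form *Cox6a2*. *Cox6b1* had 1362 and 1290 (0.884, 0.819 to 0.955), against 2 and 0 for the testis form *Cox6b2*.

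The same held for the remaining pairs. *Cox7a2* had 958 and 920 counts (0.897, 0.818 to 0.983) and the muscle form *Cox7a1* 19 and 8 (0.393, 0.149 to 0.941). *Cox8a* had 3143 and 2973 (0.883, 0.840 to 0.929), while *Cox8b*, *Cox8c* and *Cox7b2* had 0 counts in both libraries, which allows up to 3 counts in each. *Cox8a* and *Cox6a1* were the nuclear members with the highest levels per length, at 272 and 249 CPM per kb in WT and 240 and 215 in FRβ KO. *Cox7a2l*, which shares the prefix but links complexes III and IV into supercomplexes, had 2008 and 2210 counts (1.03, 0.967 to 1.09). *Atp5s*, whose product regulates ATP synthase and is no core subunit, had 62 and 92 (1.39, 0.993 to 1.94).

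*Ndufa4* carries a complex I name but is a subunit of complex IV, and in inflammatory macrophages it is known to be replaced by the product of *AA467197*, also called NMES1. *Ndufa4* had 830 WT and 858 FRβ KO counts (0.965, 0.876 to 1.06), and was the complex IV subunit whose interval held 1. *AA467197*, which is not a member, had 18648 and 17647 counts (0.884, 0.866 to 0.902), far above *Ndufa4* in both libraries. The hypoxia-induced relative *Ndufa4l2* had 6 and 5 counts.

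Complex V makes ATP, and its parts differed in ratio and also in coding length. The median coding length was 894 bp in the F1 head, 561 bp in the peripheral stalk and 309 bp in the membrane part. Coding length went with the ratio, as described below, and its part in this contrast was not tested. The 5 subunits of the catalytic F1 head had 2 intervals below 1 (40%, beside 16.6% of all genes) and a median log2 ratio of -0.03. The 4 counted subunits of the peripheral stalk had 1 below (25%) and a median of 0.01. The 7 subunits of the membrane part, Fo, had 6 below 1 (85.7%) and 0 above (beside 15% of all genes), a median of -0.28 and a summed ratio of 0.829 (0.794 to 0.865). Over all 16 subunits with at least 10 counts, 9 lay below 1 (56.25%) and 0 above, and the summed ratio was 0.935 (0.920 to 0.949).

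In the F1 head, *Atp5b*, the catalytic β subunit, had 10212 WT and 9929 FRβ KO counts (0.908, 0.883 to 0.933), and *Atp5a1*, the α subunit, had 6832 and 7176 (0.981, 0.949 to 1.01). These were the most abundant per length, at 129 and 117 CPM per kb in WT. *Atp5e*, the small ε subunit, had 985 and 792 counts (0.751, 0.683 to 0.825), the lowest ratio in the head. In the stalk *Atp5f1* had 2751 and 3057 (1.04, 0.985 to 1.09) and *Atp5o* 424 and 391 (0.861, 0.749 to 0.990). A second identifier that carries the *Atp5o* symbol had 0 counts in both.

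In the membrane part, the rotating c ring is encoded by 3 genes that give the same mature protein. *Atp5g1* had 372 WT and 327 FRβ KO counts (0.821, 0.705 to 0.955), *Atp5g2* 492 and 514 (0.976, 0.860 to 1.11) and *Atp5g3* 931 and 804 (0.806, 0.733 to 0.887). With its near-identical copy *Gm10039*, the interval of *Atp5g1* held 1, at 511 and 484 counts (0.884, 0.779 to 1.00).

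The other 4 membrane subunits are small and each had an interval below 1. *Atp5k*, the e subunit that helps ATP synthase pair into dimers, had 302 and 236 counts (0.730, 0.613 to 0.868). *Atp5mpl*, a small proteolipid, had 429 and 340 (0.740, 0.640 to 0.855), *Atp5l*, the g subunit, 983 and 877 (0.833, 0.760 to 0.913), and *Atp5j2*, the f subunit, 1086 and 980 (0.843, 0.772 to 0.919). *Usmg5*, another small subunit of the dimer that lacks the prefix, had 1028 and 932 (0.847, 0.774 to 0.926).

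The rule did not use transcript features, and coding length was a feature that went with the ratio. Of the 23 nuclear members with at least 50 counts that were over 1.2-fold lower with an interval off 1, 19 have a longest coding sequence of at most 500 bp. Among the 50 nuclear members of at most 500 bp, 31 had an interval below 1 and 0 above, and the median log2 ratio was -0.24. Of other protein-coding genes of that length, 26.8% had an interval below 1. Among the 38 longer members, 10 lay below 1 and 4 above (beside 16.6% and 15% of all genes), and the median was -0.02. Other protein-coding genes showed a smaller difference in the same direction, with medians of -0.08 for 1016 genes of at most 500 bp and 0.00 for 11029 longer genes.

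The members of at most 500 bp still lay below other genes of their length. With at least 200 counts, 30 of 47 such members (63.8%) had an interval below 1, against 33.5% of 708 other protein-coding genes of that length and depth. Over length classes the members' median was -0.31 at 250 bp or less (14 genes), -0.26 at 251 to 350 bp (17), -0.15 at 351 to 500 bp (19), -0.09 at 501 to 750 bp (17), -0.01 at 751 to 1000 bp (8) and -0.02 above 1000 bp (13). The other genes went from -0.13 in the shortest class to 0.01 in the longest. Across the 86 nuclear members with at least 50 counts, Spearman's rho of ratio and coding length was 0.505, given as a description over genes that share both libraries, against 0.158 over 10533 other protein-coding genes.

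When the median of other genes in the same length class was subtracted from each member, the nuclear median became -0.08, with 57 of 88 members below their class. By complex the remainder was -0.10 in I, 0.07 in II, -0.03 in III, -0.10 in IV and -0.15 in V. Mitochondrial ribosomal protein genes, another nuclear set for the same organelle, had 9 of 77 intervals below 1 (11.7%, beside 16.6% of all genes), 3 above (3.90%, beside 15%) and a median of -0.08. RNA integrity and fragment size of the pools are not in the files, and their part in the relation with length was not tested.

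**Figure D4:**
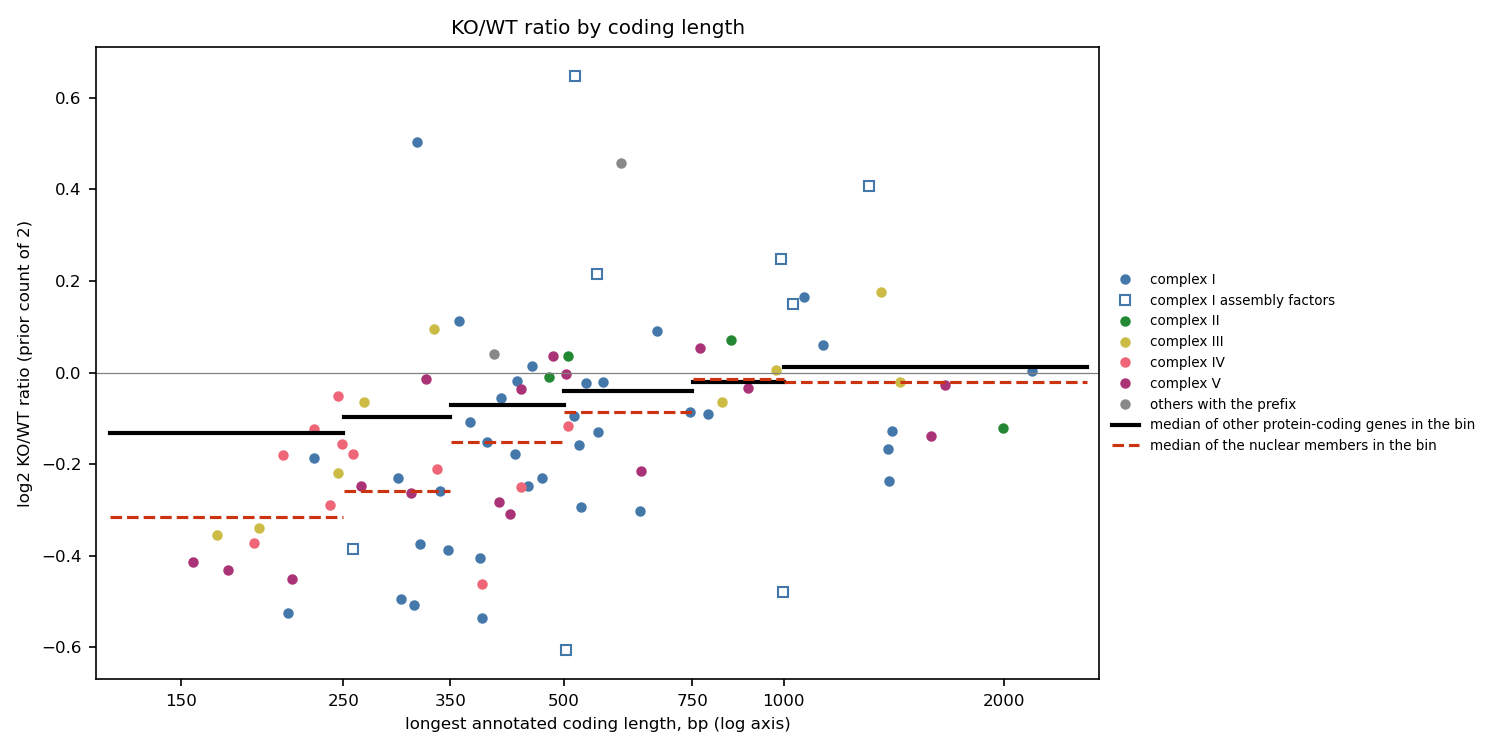
Log2 of the FRβ KO over WT ratio (prior count of 2) against the longest annotated coding length on a log axis, for the 86 nuclear members with at least 50 counts. Black bars are medians of all other protein-coding genes in each length class and dashed red bars those of the nuclear members. The members lie below other genes in the 3 classes up to 500 bp and near them from 751 bp on.

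Promoters of respiratory genes are known for sites of NRF1 and of ETS factors such as GABP. RefSeq promoters (GRCm38.p6, 250 bases before to 50 after the start) matched 76 of the 95 nuclear members. The NRF1 motif, searched as GCGC, A, any base and GCGC in a row, was found on either strand in 19 (25%), against 5.19% of the 27025 genes with a promoter and 11.6% of the 9859 that were counted here. The ETS motif CCGGAAG was found in 18 (23.7%), against 9.93% and 20.5%, and AAGATGG, a YY1 motif, in 12 (15.8%), against 7.28% and 8.44%. TATAAA was found in 7 (9.21%), against 15.7% and 8.94%. Matches of different motifs in a promoter may overlap.

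Members with and without the NRF1 motif had like ratios, with medians of -0.12 over 19 and -0.16 over 54. With the ETS motif the median was -0.18 over 18, and -0.14 over 55 without. Both motifs were found in 4 members, *Sdhd*, *Cox6a1*, *Atp5h* and *Atp5k*, whose ratios ran from 0.730 to 1.03. A pair of promoters is shown because their genes went opposite ways and both hold the NRF1 motif. They are *Atp5k* (chr5:108434350-108434649, minus strand, ratio 0.730) and *Ndufaf4* (chr4:24897833-24898132, plus strand, ratio 1.57), with matches of these motifs in capitals, and were chosen after their values were seen.
Atp5k: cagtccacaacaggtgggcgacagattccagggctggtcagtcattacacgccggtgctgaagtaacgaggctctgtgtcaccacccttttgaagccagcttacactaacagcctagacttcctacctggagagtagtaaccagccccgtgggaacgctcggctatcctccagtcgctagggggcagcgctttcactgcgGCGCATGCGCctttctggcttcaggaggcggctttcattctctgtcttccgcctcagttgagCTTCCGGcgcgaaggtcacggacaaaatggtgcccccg
Ndufaf4: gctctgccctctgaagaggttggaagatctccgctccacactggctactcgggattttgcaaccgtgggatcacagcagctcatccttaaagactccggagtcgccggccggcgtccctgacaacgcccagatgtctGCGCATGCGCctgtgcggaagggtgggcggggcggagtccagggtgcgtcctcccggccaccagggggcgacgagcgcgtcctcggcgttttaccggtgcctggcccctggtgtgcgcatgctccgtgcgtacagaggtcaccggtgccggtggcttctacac
In *Atp5k* the later match is the ETS motif on the other strand. A match is only a run of letters, and no binding was measured.

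Of 12 regulators of respiratory gene expression, 10 had at least 10 counts, 4 of them with an interval below 1 and 0 above. Among all genes the shares were 16.6% below and 15% above. *Nrf1*, which encodes the factor that binds the first motif, had 956 WT and 895 FRβ KO counts (0.874, 0.797 to 0.959). *Esrra*, a nuclear receptor that works with PGC-1 coactivators on these genes, had 1306 and 1178 (0.842, 0.778 to 0.912). The others below 1 were *Nfe2l1*, at 5079 and 4876 (0.896, 0.862 to 0.933), and *Myc*, named after its values were seen, at 16 and 4 (0.233, 0.0568 to 0.724). The coactivator gene *Ppargc1b* had 398 and 406 (0.953, 0.827 to 1.10), and *Ppargc1a* had 3 and 2, too few to compare.

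Genes that keep and transcribe mitochondrial DNA had 5 of 29 intervals above 1 (17.2%, near the 15% of all genes), 1 below (3.45%, beside 16.6% of all genes) and a median log2 ratio of 0.07. *Tfam*, which packages mitochondrial DNA and starts its transcription, had 343 and 366 counts (0.996, 0.858 to 1.16). *Mterf3* had 281 and 379 (1.26, 1.08 to 1.47), *Mterf1a* 28 and 52 (1.73, 1.08 to 2.85), and *Tfb1m*, which methylates mitochondrial rRNA, 56 and 36 (0.600, 0.384 to 0.929).

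Assembly factors outside the prefixes mostly had intervals that held 1. For the counts that follow, 16.6% of all genes lay below 1 and 15% above. For complex I it was 3 of 11 below 1 and 0 above, with *Timmdc1* at 386 and 302 counts (0.731, 0.626 to 0.851). For complex II all 4 intervals held 1, with *Sdhaf2* at 1148 and 1254 (1.02, 0.941 to 1.11). For complex III it was 2 of 6 below and 1 above. *Bcs1l*, which inserts the Rieske protein, had 73 and 124 counts (1.59, 1.18 to 2.15), while *Uqcc3* had 535 and 430 (0.751, 0.659 to 0.854) and *Uqcc2* 264 and 205 (0.725, 0.601 to 0.874).

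For complex IV assembly it was 6 of 20 below 1 and 1 above. *Higd1a*, a hypoxia-induced partner of complex IV, had 1050 WT and 703 FRβ KO counts (0.625, 0.567 to 0.688). *Cox18*, which inserts the *mt-Co2* product into the membrane, had 222 and 318 (1.34, 1.12 to 1.59). For complex V it was 1 of 4 below, *Atpaf1*, the chaperone of the β subunit, at 140 and 95 counts (0.634, 0.483 to 0.828).

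Among 11 counted carriers and uncoupling proteins of the inner membrane, 4 had an interval below 1 (36.4%, beside 16.6% of all genes). Another 2 had an interval above 1 (18.2%, near the 15% of all genes). *Ucp2*, an uncoupling-family carrier of macrophages, had 8487 WT and 11494 FRβ KO counts (1.26, 1.23 to 1.30). The ADP/ATP carriers *Slc25a4* and *Slc25a5* were lower, at 1248 and 1037 (0.776, 0.714 to 0.843) and 3374 and 3150 (0.872, 0.830 to 0.915). Coenzyme Q synthesis genes had 2 of 13 below 1 (15.4%) and 0 above. Import and cristae genes had 3 of 19 below (15.8%) and 1 above (5.26%), with the small import subunit *Tomm7* at 284 and 201 (0.661, 0.549 to 0.795). The shares below 1 in both lists were near the 16.6% of all genes.

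**Figure D5:**
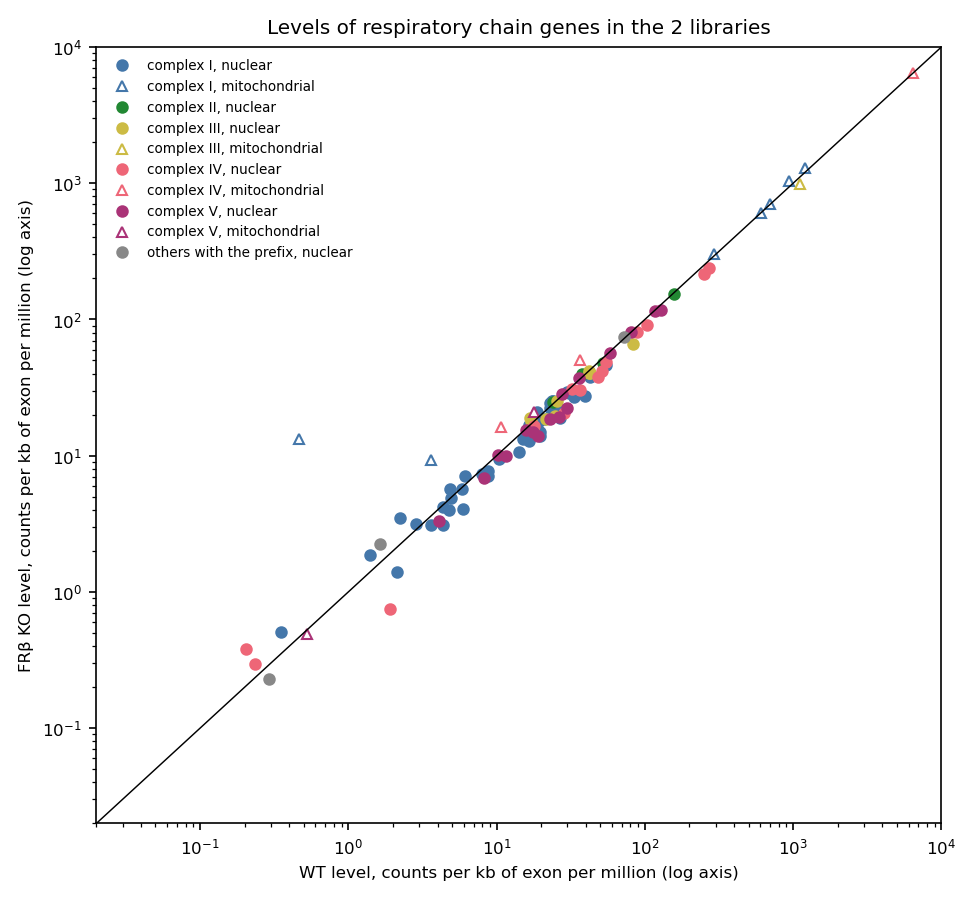
Level of each member with a count in both libraries, as CPM per kb of exon, WT on the horizontal and FRβ KO on the vertical log axis, with the line of equality. Filled points are nuclear and open triangles mitochondrial genes. Nearly all lie close to the line, from *mt-Co1* at 6422 in WT downward, and *mt-Nd3* and *mt-Nd4l* lie well above it.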

How the data were processed

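M1-like BMDMs gave 1 RNA library per genotype, each from RNA of 3 mice that was pooled. The deposited table holds raw read counts for each gene, which the authors obtained from their sequencing provider after alignment of paired-end reads to mm10 with HISAT2. For the counting step, the program, annotation and strand setting were not given in the sources used here. No source explains FA_N in the titles. Columns of other samples numbered 0.

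Gene symbols, types, positions and exon and coding lengths were taken from GENCODE M21 (GRCm38) by Ensembl identifier, and 37 of 54532 identifiers had no match. TMM factors of edgeR 4.0.16 (R 4.3.3) scaled the libraries. Each KO/WT ratio of scaled counts received a 95% Clopper-Pearson interval (exact) computed from both counts (scipy 1.17.1, Python 3.11.15), and log2 ratios used a prior count of 2. Reads carried no molecular identifiers, so intervals and floors cover counting error only, and the floor was 3 counts. A quasi-likelihood fit needs replicates, so no p-value is given. Shares over all genes used those with at least 10 counts over both libraries.

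Near-identical copies were transcripts of other genes that blastn 2.17.0 aligned at 95% identity over 150 or more bases and, a condition added after the data were seen, at least 50% of the shorter transcript. Genes named were all mitochondrial members, in each complex the 2 nuclear members highest per exon length, nuclear members with at least 50 counts, an interval off 1 and a point ratio beyond 1.2-fold, fixed core and isoform genes, and up to 3 genes of each related list, and 1 gene is not reported here. The members and lists were chosen with earlier results of these data known. Alternatives were other scalings (total counts, upper quartile, size factors of DESeq2 1.42.0), copies summed or left out, other count minimums, a 99% interval, a 1.5-fold limit and other prior counts.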

Additional observations from a re-analysis of the deposited data

How the results depend on the processing

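Of 74 alternative values for 12 results, 63 stayed within 1.5 times a count or within the interval or spread of the value reported, 10 moved further and 1 changed direction. An alternative left out the 24 nuclear and 9 mitochondrial members with a near-identical copy, *mt-Co1*, *mt-Nd5* and *mt-Nd4* among them. There the summed mitochondrial ratio turned to 0.961 and the quotient of mitochondrial to nuclear counts fell to 1.03. In this shorter list 4 members had an interval above 1 and 18 a point ratio beyond 1.2-fold, against 12 and 33 in the full list. These counts fall in part because the list is shorter. With the copies summed instead, the summed mitochondrial ratio was 1.01 and the quotient 1.09. A limit of 1.5-fold left 6 members. Scaling by total counts gave summed ratios of 0.951 for nuclear members, 0.936 for complex I, 0.891 for complex IV, 0.957 for complex V and 1.04 for mitochondrial members, and without *mt-Co1* the last was 1.02. Under each scaling tried the intervals of nuclear complexes I, IV and V stayed below 1, while under total counts complex III was 0.983 with an interval that held 1 (0.954 to 1.01) and complex II was 1.00. Subtracting the median of the coding-length class, an alternative added after the data were seen, left a nuclear median of -0.08. No paired analysis was possible because each genotype has 1 library. How far 2 pools of 1 genotype differ was not measured, and depth limits mainly the assembly factors and the mitochondrial genes with copies.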

Other observations

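*Ndufb1-ps*, which carries a complex I name but is annotated as a noncoding RNA, had 475 WT and 340 FRβ KO counts (ratio 0.668, interval 0.580 to 0.770). It was named after its values were seen. Cytosolic ribosomal protein genes also differed by coding length, with a median log2 ratio of -0.58 over 6 genes of at most 250 bp, -0.12 over 11 of 251 to 350 bp, -0.04 over 30 of 351 to 500 bp, 0.02 over 21 of 501 to 750 bp, 0.10 over 10 of 751 to 1000 bp and 0.08 over 3 above 1000 bp. Medians of mitochondrial ribosomal protein genes did not rise evenly, with -0.01 over 7 genes of 251 to 350 bp, -0.12 over 19 of 351 to 500 bp, -0.04 over 24 of 501 to 750 bp, -0.04 over 16 of 751 to 1000 bp and 0.08 over 11 above 1000 bp. Their ratios still went with coding length, at a Spearman's rho of 0.287 over 77 genes with at least 50 counts. Within that list, *Mrpl48* had 303 WT and 181 FRβ KO counts (0.558, 0.461 to 0.673), and *Mrpl45* had 683 and 901 (1.23, 1.11 to 1.36).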
